A study of Mus musculus with 3 samples.

Results

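Adventitial fibroblasts are the fibroblasts of the connective tissue sheath around the airways and larger vessels of the lung. The cells described here are those that the authors annotated as AdvFB in the 2 tdTomato-negative libraries and that were selected on Acta2, the smooth muscle actin gene, at below 500 counts per 1e6 UMIs (CPM). They number 427 of the 6142 cells of the series. Of these, 102 came from the gate sorted for a low level of a green reporter of Pdgfra (GFP-low) and 325 from the gate sorted for a high level (GFP-high). The question was which genes differ between adventitial fibroblasts on the 2 sides of that gate.

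All cells came from mouse pups of the genotype Fgf18CreERT2/+; ROSA TDTomato/+; Pdgfrα EGFP/+. Every group therefore carried a tamoxifen-inducible Cre at the Fgf18 locus, a Cre-dependent tdTomato reporter and 1 Pdgfra allele with a GFP reporter, and every group had received tamoxifen from postnatal day 2 to day 5. Lungs were dissociated on postnatal day 7, live cells were sorted by GFP and tdTomato, and each gate gave 1 droplet library. There is no replicate, so no test was run. Intervals are exact, at 95%, and cover counting error only. Whether a library pools several pups, and whether its cells come from separate animals, is not stated by the labels.

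Pdgfra encodes a receptor tyrosine kinase for platelet-derived growth factors, and in the postnatal lung it is found in several fibroblast classes, including the myofibroblasts that deposit elastin during alveolar septation. Adventitial fibroblasts lie outside the alveoli. They are known for collagens, decorin and complement proteins, for the cytokine interleukin-33, and for a subset with the surface proteins SCA-1 (Ly6a) and CD34 and the secreted protein PI16, which is often described as a fibroblast reserve.

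The annotation was checked against 25 adventitial fibroblast markers, and 24 of them reached 10 CPM in the higher of the 2 libraries. Dcn, the gene of the collagen-binding proteoglycan decorin, stood at 3781 CPM in the GFP-low and 6146 CPM in the GFP-high cells, against 15.3 and 409 CPM in the matrix fibroblasts (MatFB types) of the same libraries and 34.2 and 8.55 CPM in the myofibroblasts (MyoFB types). Col14a1, which encodes a fibril-associated collagen, stood at 2169.9 and 1941 CPM against 17.6 and 317 CPM in MatFB types. Dpp4, another marker of the reserve subset, was the marker below 10 CPM, at 4.70 and 6.63 CPM. Dpt, another marker, was less particular to these cells, with 1006 and 640.0 CPM in MatFB types.

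The Acta2 limit removed cells mainly from one gate. It left out 46 of the 148 AdvFB cells of the GFP-low library and 3 of the 328 of the GFP-high library. Inside the limit, 64 and 227 cells held no Acta2 UMI, and the highest cells stood at 419.9 and 434.8 CPM. The nearest cells outside stood at 509.2 and 508.3 CPM, and the highest at 18336 and 4494 CPM, as the plot of Acta2 by cell shows. Summed over the members, Acta2 stood at 50.9 and 26.0 CPM, a value the limit itself bounds.

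**Figure D1:**
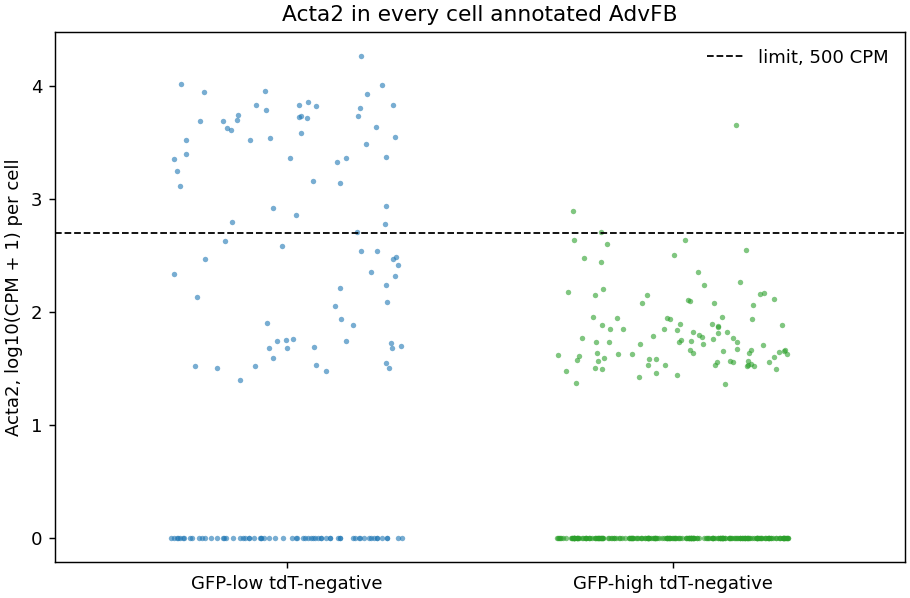
Each point is 1 AdvFB cell, with its library on the x axis and log10 of its Acta2 CPM plus 1 on the y axis; points are spread sideways at random. The dashed line marks 500 CPM: 46 GFP-low cells lie above it, up to 18336 CPM, and 3 GFP-high cells do.

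The members held 2555470 UMIs in the GFP-low and 8145660 UMIs in the GFP-high library, with medians of 24103 and 24660 UMIs per cell. Mitochondrial genes took a median of 2.16% and 1.44% of a member's UMIs. A count of 0 allows up to 3 UMIs, or 1.17 and 0.368 CPM. Over all cells the 3 libraries shared 4 barcodes, none of them between members of the 2 gates. Cells with Xist and no Y-linked UMI made up 24.5% and 26.2% of the members, and cells with Y-linked and no Xist UMI 55.9% and 57.5%, so the sexes were present in like shares. A further 4 AdvFB cells lay in the GFP-high tdT-high library and entered no comparison.

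The Pdgfra transcript differed little between the 2 gates in these cells. Pdgfra (chr5:75152292-75198215, forward strand; GRCm38) stood at 249.7 CPM in the GFP-low cells (231 to 269.8) and 263 CPM in the GFP-high cells (252 to 275), a ratio of 1.05 (0.965 to 1.15). The reporter transcript, listed by the authors as H2BGFP, stood at 94.3 CPM (82.8 to 107) and 98.9 CPM (92.2 to 106), again a ratio of 1.05 (0.907 to 1.22). The intervals of the 2 gates overlapped for both transcripts. In the other fibroblasts of the same libraries they did not: Pdgfra went from 156 CPM in the GFP-low to 262 CPM in the GFP-high MatFB types (1.68-fold, 1.56 to 1.82) and from 272 to 492 CPM in the MyoFB types (1.81-fold, 1.64 to 2.00). H2BGFP was 1.52-fold higher (1.31 to 1.76) in MatFB and 1.50-fold higher (1.31 to 1.71) in MyoFB types. The mix of MatFB subtypes differed between the gates, with MatFB-Im,Cuff making up 205 of 1055 GFP-low and 110 of 170 GFP-high MatFB cells. The MyoFB types were 66 GFP-low and 2659 GFP-high cells.

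After thinning every cell to 5000 UMIs, Pdgfra was seen in 57.8% of GFP-low members (47.7 to 67.6) and 66.2% of GFP-high members (60.7 to 71.3), and H2BGFP in 32.4% (23.4 to 42.3) and 40.0% (34.6 to 45.6). These intervals also overlapped. The gates were set on GFP protein, which was not measured in these files. The ratios moved with the choice of cells: the log2 ratio of Pdgfra was 0.08 over the members, 0.50 over all AdvFB cells, 0.42 in cells with Xist and no Y-linked UMI and -0.14 in cells with Y-linked and no Xist UMI, and it was -0.13 in the cluster that holds most members of both gates.

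**Figure D2:**
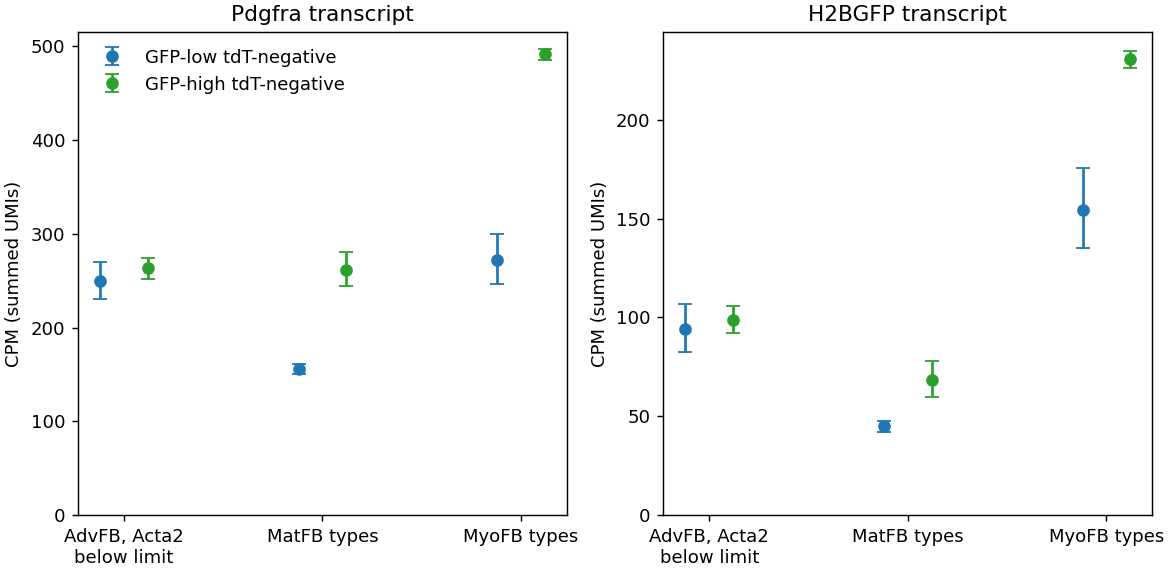
Points give the CPM of summed UMIs of Pdgfra (left) and H2BGFP (right) in AdvFB below the Acta2 limit, MatFB types and MyoFB types, by library; bars are exact 95% Poisson intervals for counting error only. The 2 gates overlap in AdvFB (250 and 263 CPM for Pdgfra) and are apart in the other cell types.

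The lineage transcripts were close to absent in the members. TDT, the tdTomato transcript, gave 2 UMIs in the 102 GFP-low and 5 UMIs in the 325 GFP-high cells, and CreERT2 gave 1 and 8 UMIs. Fgf18, the locus that drives the Cre, stood at 3.13 and 3.19 CPM, against 57.0 and 62.1 CPM in the MyoFB types.

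Against this small difference in the reporter's own transcript, a limited set of genes was apart. Genes were counted when they reached 50 CPM and a UMI in 10% of cells in the higher library, and a gene was called from 2-fold on the log2(CPM + 1) scale. Of 3661 genes counted, 65 were higher in the GFP-high cells (1.78%) and 49 lower (1.34%). Possible free RNA, meaning a level at most 10% of that in the MyoFB types (for higher genes) or MatFB types (for lower genes) of the same library, marked 2 of the 65 and 1 of the 49. In addition, 10 of the 65 and 12 of the 49, with all the marked genes among them, were at least 1.5-fold apart in the same direction in AdvFB, MatFB and MyoFB cells alike.

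**Figure D3:**
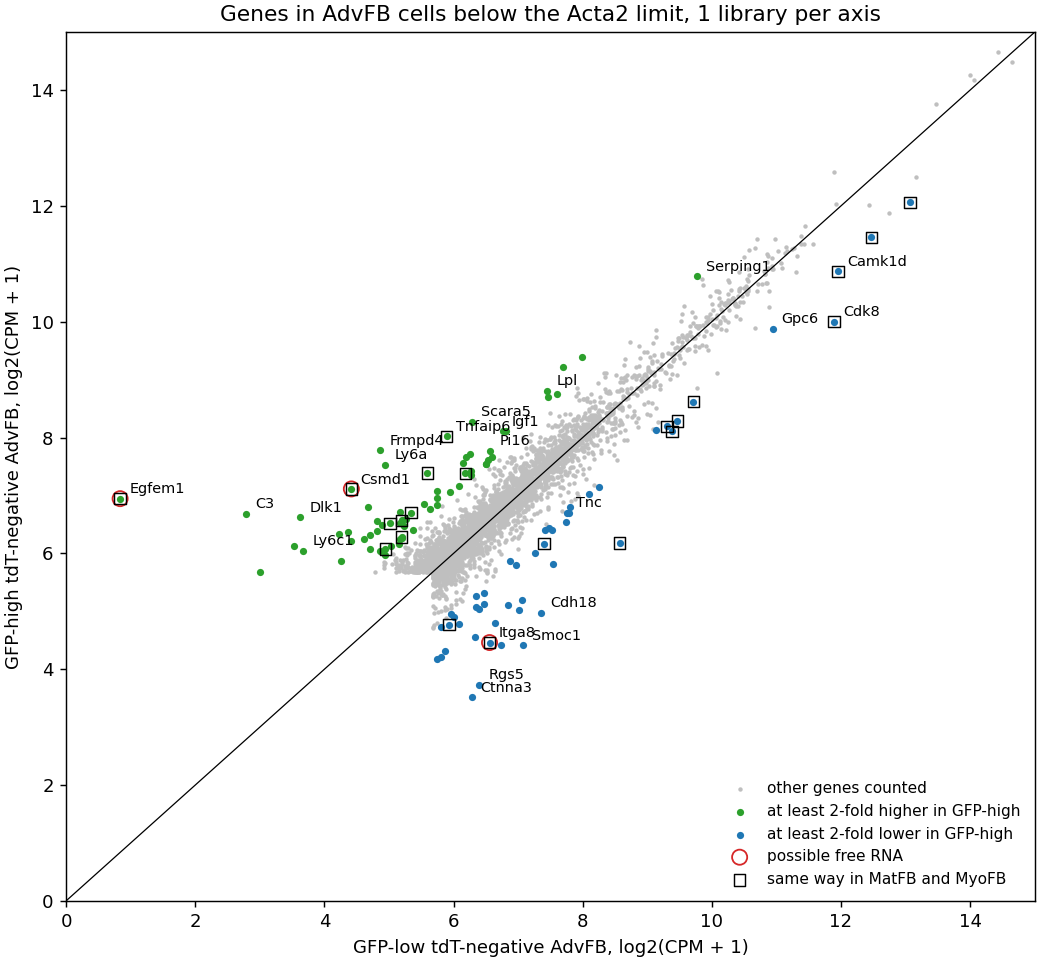
Each point is 1 of the 3661 genes counted, at log2(CPM + 1) in GFP-low (x) and GFP-high (y) AdvFB below the Acta2 limit; the line marks equal levels. Green points (65) and blue points (49) are at least 2-fold apart, red circles mark possible free RNA and squares mark genes apart the same way in MatFB and MyoFB types.

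Clustering of all cells split the members unevenly. At resolution 1.0, one cluster held 82 GFP-low and 305 GFP-high members and is called the shared cluster here. Another cluster held 15 GFP-low and no GFP-high members, with 235 CPM of Myh11 and 377 CPM of Rgs5, genes of smooth muscle and of pericytes. One more held 16 GFP-high and no GFP-low members. Within the shared cluster, 53 of the 65 higher genes and 29 of the 49 lower genes were still at least 2-fold apart. At resolution 0.5 the GFP-low cluster merged with the shared one, while the 16 GFP-high cells stood apart at 0.5, 1.0 and 2.0.

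Many adventitial markers were higher in the GFP-high cells. Of the 24 adventitial markers at 10 CPM, 14 were at least 1.5-fold higher and none lower, where 6.59% of all 9376 genes at 10 CPM were higher and 6.37% lower. The median log2 ratio was 0.65 against 0.04 over all these genes. The shares over all genes are the background for every list count below. In the shared cluster 11 were higher, 1 was lower and the median stood at 0.52. The marker lists were chosen with earlier results of these data known, and adventitial markers were already seen to be higher there.

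Ly6a (chr15:74994877-74998031, reverse strand), which encodes the surface protein SCA-1, gave 76 UMIs (29.7 CPM) in the GFP-low cells and 1497 UMIs (184 CPM) in the GFP-high cells, 6.18-fold higher (4.91 to 7.89). It was seen in 4 of 102 GFP-low cells, 1 of which held 41 of the UMIs, and in 132 of 325 GFP-high cells. After thinning these shares were 2.94% (0.611 to 8.36) and 25.8% (21.2 to 31.0). The thinned share was 0.0948% and 0% in the MatFB types, whose median depths were 19434 and 17819.5 UMIs, and 0% and 0.0376% in the MyoFB types, with medians of 20611.5 and 19005 UMIs. Few cells outside AdvFB, and few GFP-low AdvFB cells, held Ly6a. Its neighbour Ly6c1, of the same family, stood at 11.7 and 64.9 CPM (5.53-fold, 3.83 to 8.28). Reads of Ly6c1 and the near-identical Ly6c2 may be split between the genes, so its level is uncertain.

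Scara5 (chr14:65666403-65764826, forward strand), a ferritin-binding scavenger receptor, was seen in far more cells: its level was 76.7 CPM in the GFP-low and 308 CPM in the GFP-high cells (4.02-fold, 3.47 to 4.67), and the thinned share of cells 16.7% and 57.8%. In MyoFB types that share was 22.7% and 16.1% and the level 52.3 and 53.9 CPM. The share in GFP-low adventitial cells lay between these MyoFB shares, while their level was above both MyoFB levels. In MatFB types Scara5 stood at 1.47 and 26.7 CPM. Pi16, a secreted peptidase inhibitor, stood at 93.9 and 217 CPM (2.31-fold, 2.02 to 2.66). Of its 240 GFP-low UMIs, 108 came from 1 cell. Il33, the interleukin-33 gene, stood at 27.0 and 82.7 CPM (3.06-fold, 2.39 to 3.99). Entpd2, an ectonucleotidase, stood at 60.3 and 132 CPM (2.19-fold). All 3 were also higher in the GFP-high MatFB types. There Pi16 stood at 3.42 and 24.2 CPM, Il33 at 0.808 and 10.9 CPM and Entpd2 at 0.665 and 9.01 CPM.

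Several other markers were higher by less. Dcn was 1.63-fold higher (1.59 to 1.66), Gsn, the gene of the actin-severing protein gelsolin, went from 1669 to 2747 CPM (1.65-fold), and Clec3b, which encodes tetranectin, from 762 to 1234 CPM (1.62-fold). Serpinf1, which encodes pigment epithelium-derived factor, went from 427 to 805 CPM (1.89-fold) and Cd34 from 268 to 409 CPM (1.53-fold). Further markers were near 1-fold. Dpt (dermatopontin) stood at 1308 and 1271 CPM, Col14a1 at a log2 ratio of -0.16, the transcription factor gene Ebf1 at 0.10 and Lum (lumican) at 0.21. Igfbp6, an inhibitor of insulin-like growth factor 2, was below 1-fold, at 162 and 122 CPM. The ratio thus differed from marker to marker, and the cause was not tested.

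The GFP-high cells could be divided by Ly6a itself. The 132 GFP-high cells with a Ly6a UMI (median 27600 UMIs) held 392 CPM of Pi16, against 74.3 CPM in the 193 without one (median 23302 UMIs). Ebf2, a transcription factor gene, stood at 459 and 128 CPM in the same cells, and Il33 at 129.9 and 44.2 CPM. The reverse held for Smoc1, a matricellular calcium-binding protein, with 1 UMI in the first group and 164 in the second. Pdgfra stood at 234 CPM (218 to 249.8) with and 287 CPM (272 to 304) without a Ly6a UMI, and these intervals did not overlap. The 16 GFP-high cells that clustered apart held no Ly6a UMI, so all lay in the second group. Their Pdgfra level, given below, was above that of either group, and their part in this difference was not tested.

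Levels are also given for cells without any Ly6a UMI, of which the GFP-low library had 98 (median 23279 UMIs) and the GFP-high library 193. C3, Dlk1, Scara5 and Smoc1 were named for their ratios over all members, and these cells include most GFP-low members. Differences in these genes were therefore close to given. A cell without a Ly6a UMI may still express the gene, and the part of the Ly6a cells in the differences was not tested. C3 stood there at 3.72 and 61.1 CPM, Dlk1 at 9.52 and 102 CPM and Scara5 at 55.5 and 170.2 CPM. Pi16 was closer, at 44.3 (36.3 to 53.5) and 74.3 CPM (66.5 to 82.7). Smoc1 was lower in the GFP-high cells here too, at 142 and 36.6 CPM. The 4 GFP-low cells with a Ly6a UMI held 956 CPM of Pi16 and 446 CPM of Scara5, but 1 of them held 108 of their 133 Pi16 UMIs.

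Among lists with at least 5 genes at 10 CPM, the complement list had the largest share of higher members. Of 10 at 10 CPM, 8 were higher and none lower, with a median log2 ratio of 0.97, and in the shared cluster 8 of 10 were higher and 0 lower (median 0.89). C3 (chr17:57203970-57228136, reverse strand), the central component of the cascade, gave 15 UMIs (5.87 CPM) in the GFP-low and 829 UMIs (102 CPM) in the GFP-high cells, 17.3-fold higher (10.5 to 31.1). It was seen in 9 of 102 and 97 of 325 cells, and the thinned share was 3.92% and 16.3%, against 0% and 0.338% in MyoFB types. MatFB types showed C3 the same way, at 1.19 and 33.2 CPM.

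The other complement genes spanned the cascade. The classical pathway proteases C1ra and C1s1 went from 117 to 201 CPM (1.71-fold, 1.51 to 1.94) and from 144 to 243 CPM (1.69-fold), and their inhibitor Serping1 from 873 to 1765 CPM (2.02-fold, 1.93 to 2.12). C2 and Cfb, the paralogous catalytic subunits of the classical and alternative convertases, went from 20.3 to 39.8 and from 3.13 to 12.9 CPM. C4b stood at 15.7 and 41.5 CPM and C1rb, a close copy of C1ra, at 35.6 and 93.9 CPM, both uncertain because near-identical copies share reads. C1rb was also higher in the GFP-high MatFB types, at 7.74 and 30.8 CPM, and stood at 0 and 0.798 CPM in MyoFB types. C7, of the membrane attack complex, stood at 5.09 and 37.1 CPM, against 342 and 120.2 CPM in MatFB types, where it was lower in the GFP-high gate. The regulator Cd55 was nearer 1-fold, at 71.6 and 86.1 CPM.

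Chemokines and cytokines had 5 of 13 higher and 1 lower. Cxcl12, a ligand for leukocyte and stem cell homing, went from 188 to 295 CPM (1.57-fold, 1.42 to 1.73) and Csf1, a macrophage growth factor, from 43.4 to 70.2 CPM (1.62-fold). Cxcl13, a B cell chemokine, gave 1 UMI in the GFP-low cells and 156 in the GFP-high cells, a ratio of 48.9 (8.66 to 1945). Of the 234 Ccl19 UMIs in GFP-high cells, 232 came from 1 cell. Ccl2, a monocyte chemokine, was the lower member, at 31.3 and 12.8 CPM. Il6 and Cxcl1 stood near 1-fold, with log2 ratios of 0.03 and 0.19.

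The promoters of 4 of these genes are shown to give the sequence context of the difference: C3 and Pi16, higher in GFP-high cells, Cdh18, lower there (below), and Pdgfra, whose locus carries the reporter. Each runs from 250 bases before to 50 bases after the RefSeq start (build GRCm38.p6), 5′ to 3′ on the gene's strand: C3 at chr17:57228087-57228386 (reverse), Pi16 at chr17:29318632-29318931 (forward), Cdh18 at chr15:23036213-23036512 (forward) and Pdgfra at chr5:75152001-75152300 (forward). The Cdh18 and Pi16 windows lie inside the gene bounds of GENCODE M21 and not at their outer start, and which start these cells use was not tested. Capitals mark matches, on either strand, to GGG, any 5 bases and CC, a loose form of the NF-kappaB motif.
C3 promoter: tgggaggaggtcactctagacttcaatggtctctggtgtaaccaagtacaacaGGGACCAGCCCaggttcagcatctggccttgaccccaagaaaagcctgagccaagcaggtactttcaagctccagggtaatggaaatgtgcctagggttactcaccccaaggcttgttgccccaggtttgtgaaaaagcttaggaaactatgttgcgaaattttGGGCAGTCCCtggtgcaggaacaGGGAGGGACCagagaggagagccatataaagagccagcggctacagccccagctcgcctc
Pi16 promoter: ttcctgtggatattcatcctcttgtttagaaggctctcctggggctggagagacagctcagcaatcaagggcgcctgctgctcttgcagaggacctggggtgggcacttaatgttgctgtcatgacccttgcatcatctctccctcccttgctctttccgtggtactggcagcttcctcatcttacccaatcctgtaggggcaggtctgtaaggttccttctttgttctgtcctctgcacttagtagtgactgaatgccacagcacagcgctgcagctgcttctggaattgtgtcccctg
Cdh18 promoter: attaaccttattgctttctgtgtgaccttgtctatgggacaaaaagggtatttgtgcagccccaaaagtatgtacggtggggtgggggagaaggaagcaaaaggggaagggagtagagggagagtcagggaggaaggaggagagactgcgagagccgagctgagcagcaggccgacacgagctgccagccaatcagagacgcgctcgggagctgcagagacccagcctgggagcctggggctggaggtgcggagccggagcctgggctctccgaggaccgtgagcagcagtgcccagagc
Pdgfra promoter: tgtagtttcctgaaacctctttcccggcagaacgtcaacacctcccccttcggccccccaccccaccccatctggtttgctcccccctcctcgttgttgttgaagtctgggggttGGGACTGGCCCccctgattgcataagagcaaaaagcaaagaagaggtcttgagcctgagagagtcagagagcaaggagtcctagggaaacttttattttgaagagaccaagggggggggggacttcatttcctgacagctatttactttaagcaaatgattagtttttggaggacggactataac
The C3 window held 4 matches and the Pdgfra window 2, of which some overlap, and the other 2 windows held none. Of all 32851 windows of that length, 50.8% hold at least 1, so a match is common. The C3 window also held the letters TATAAA, found in 13.6% of all windows on either strand. None of the 4 held TCCC, any 2 bases and GGGA, the motif of the EBF factors, which 0.904% of all windows hold. These are matches of letters in a window and not binding sites.

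Imprinted growth genes were higher in 6 of 13 cases and lower in none, with a median of 0.47, and in the shared cluster 3 were higher. Dlk1 (chr12:109452823-109463336, forward strand), a membrane-bound Notch-like ligand of preadipocytes and progenitors, gave 29 UMIs (11.3 CPM) and 796 UMIs (97.7 CPM), 8.61-fold higher (5.95 to 12.9). Its thinned share was 3.92% and 19.7%, against 0% and 0.150% in MyoFB types. MatFB types showed Dlk1 the same way as AdvFB, at 0.143 and 16.8 CPM, with thinned shares of 0% and 7.65%. Meg3, the long noncoding RNA of the same imprinted domain, went from 918 to 1714 CPM (1.87-fold, 1.79 to 1.95), and Cdkn1c, a cell cycle inhibitor, from 145 to 227 CPM (1.56-fold). H19, another imprinted noncoding RNA, stood at 34.4 and 70.6 CPM, but 66 of its 88 GFP-low UMIs came from 1 cell, which lay in the 15-cell cluster, and in the shared cluster it stood at 10.3 and 69.2 CPM.

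The IGF list had 4 of 11 higher (36.4%, against 6.59% over all genes at 10 CPM) and none lower, with 1 lower in the shared cluster. Igf1, a growth factor, stood at 107 and 276 CPM (2.57-fold, 2.27 to 2.92), with 26.1% of the GFP-high UMIs from the 16-cell cluster, and at 109 and 210.1 CPM in the shared cluster (1.92-fold, 1.68 to 2.22). The binding proteins Igfbp5 and Igfbp3 went from 241 to 463 CPM (1.93-fold) and from 97.4 to 176 CPM (1.81-fold), while Igfbp7 was level at 2483 and 2479 CPM. The receptor gene Igf1r was level as well, with a log2 ratio of 0.02.

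Among lipid genes 4 of 16 were higher (25%) and 1 lower (6.25%, near the 6.37% over all genes at 10 CPM). Lpl, lipoprotein lipase, stood at 174 and 447 CPM (2.57-fold, 2.33 to 2.85) and was seen after thinning in 44.1% and 63.1% of cells, against 8.34% and 12.9% in MatFB types. Apod, an apolipoprotein, stood at 14.5 and 42.1 CPM, and Apoe was the lower member at 1896 and 1222 CPM. Apoe was under 1.5-fold apart in the shared cluster (1.27-fold lower), where no lipid gene was called lower. Of the retinoid genes, Aldh1a2 and Aldh1a3, which make retinoic acid, were the 2 higher of 12, at 39.5 and 103 CPM (2.61-fold, 2.12 to 3.24) and 18.4 and 37.6 CPM. Aldh1a2 was close to the floor elsewhere, at 0 and 1.55 CPM in MatFB types and 0 and 0.703 CPM in MyoFB types.

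Transcription factors were mostly level. Of 35 at 10 CPM, 3 were higher and none lower. The higher share, 8.57%, was near the background of 6.59%. Within the shared cluster 3 were higher and 2 lower. Ebf2, which is known from adipocyte precursors, went from 112 to 277 CPM (2.47-fold, 2.19 to 2.81) while its paralogue Ebf1 stood at 1175 and 1255 CPM. Klf4, a Krüppel-like factor, stood at 301 and 489 CPM and Prrx2 at 20.7 and 32.3 CPM. Tcf21, a factor of alveolar fibroblasts, was below 1-fold at 230.1 and 163 CPM, against 1021 and 605 CPM in the MatFB types.

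Several single genes of the matrix were among the highest ratios, although the matrix lists went both ways. Collagens had 3 higher and 3 lower of 22 (13.6% each), and matricellular genes 2 higher (11.1%) and 3 lower (16.7%) of 18. Counted in the shared cluster, collagens had 2 higher and 3 lower of 20. Col8a1 and Cilp, higher over all members, had log2 ratios of -1.71 and -0.12 there. Tnfaip6, a hyaluronan-binding protein induced in inflammation, stood at 58.3 and 258 CPM (4.43-fold, 3.75 to 5.27). Adamtsl3, a matrix protein related to the ADAMTS proteases, went from 47.3 to 166 CPM (3.51-fold) and its relative Adamtsl1 from 194 to 428 CPM (2.21-fold). These 2 are part of the 5 higher of 19 matrix protease and inhibitor genes. Adamtsl3 was also higher in the GFP-high MatFB types, at 1.09 and 41.0 CPM, as was Adamtsl1, at 20.7 and 256 CPM. Tnfaip6 stood there at 10.6 and 17.1 CPM. Ccbe1, which takes part in lymphatic growth by promoting the processing of VEGF-C, stood at 24.7 and 110.1 CPM (4.47-fold, 3.46 to 5.86).

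Penk and Itm2a were named after their values were seen. Penk, the proenkephalin gene, went from 31.3 to 90.6 CPM (2.89-fold, 2.30 to 3.69) and Adm, the vasodilator adrenomedullin, from 37.6 to 95.1 CPM (2.53-fold, 2.05 to 3.16). Penk was also higher in the GFP-high MatFB types, at 2.52 and 78.0 CPM, and MyoFB types, at 12.7 and 24.3 CPM. Itm2a, a membrane protein of mesenchymal progenitors, was at 207 and 598 CPM (2.89-fold). Frmpd4, a scaffold protein of synapses, stood at 28.2 and 219 CPM (7.76-fold), but 51 of its 72 GFP-low UMIs came from 1 cell, and it was seen in 63 of 325 GFP-high cells. The glutamate receptor gene Gria4 stood at 7.04 and 50.5 CPM (7.16-fold, 4.48 to 12.2). Inmt, a methyltransferase of alveolar fibroblasts, stood at 23.5 and 75.1 CPM, against 575 and 326 CPM in MatFB types, where it was lower in the GFP-high gate. Apbb1ip, Lvrn, Polk and Prlr, also among the 20 highest ratios, had log2 ratios of 1.62 to 1.79.

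Some of the higher genes are abundant in myofibroblasts. Egfem1 (chr3:29082023-29691209, forward strand) had the highest ratio of all, with 2 UMIs (0.783 CPM) in the GFP-low and 995 UMIs (122 CPM) in the GFP-high cells, a ratio of 156 (43.1 to 1291). Its GFP-high level was 1.09% of the 11208 CPM in MyoFB cells of that library, and 4 cells held 503 of the 995 UMIs. This share was also taken as the amount of free MyoFB RNA in an alternative that subtracts it from every gene, which sets Egfem1 to 0 in the GFP-high cells by construction and so says nothing about Egfem1 itself. Csmd1 stood at 20.3 and 137 CPM, the latter 7.71% of the MyoFB level, with 79.7% of the UMIs in 4 cells. Myofibroblast markers had 7 of 11 higher and none lower. Of these, Egfem1, Nrxn3, Csmd1, Rbfox1, P2ry14 and Zfp536 met the mark of possible free RNA, all but Egfem1 and Csmd1 of them below 50 CPM, and Stc1, at 11.0 and 24.9 CPM, did not. Per cell, the summed CPM of that list ran from 0 to 3330.3 in the GFP-low and from 0 to 18284 in the GFP-high members, with medians of 1073 and 1229. The markers nearer 1-fold included Aspn at 596 and 693 CPM, Tgfbi at 119 and 163 CPM, and Hhip at 239.9 and 199 CPM. The part of free RNA in these values was not tested.

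Markers of other cell types were at low levels. No mesothelial, immune, Schwann cell or G2 and M phase gene reached 10 CPM in either library. Msln, Krt8 and C1qa gave no UMI in any member, and Epcam and Ptprc gave none in the GFP-low cells. Scgb1a1, a secretory airway protein, was the epithelial gene above 10 CPM, at 0.783 CPM (2 UMIs) and 18.0 CPM (147 UMIs). Of 4 endothelial markers at 10 CPM, Tek was higher (79.8 and 125 CPM), and Cdh5, which defines endothelium, gave 8 and 4 UMIs. In the GFP-high cells 125 of 150 Hba-a1 UMIs and 816 of 818 Ccl21a UMIs came from 1 cell each, so neither describes the group. The per-cell sum of the immune list ran up to 64.9 CPM in the GFP-low and 1126 CPM in the GFP-high members, with medians of 0.

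The lower genes began with those of mural cells. Of 10 smooth muscle markers at 10 CPM, 7 were lower in the GFP-high cells and none higher, with a median of -1.46, and the Acta2 limit that chose the cells bears on this list. Of 9 pericyte markers, 6 were lower and 1 higher (median -0.99). In the shared cluster these counts were 4 lower and 1 higher of 8, with a median of -0.55, and 3 lower of 8, with a median of -0.54. Per cell the summed smooth muscle list ran from 0 to 5670.1 CPM in the GFP-low and from 0 to 2211 CPM in the GFP-high members, with medians of 409 and 261.

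Ctnna3, an alpha-catenin of muscle, had the lowest ratio, at 76.7 and 10.4 CPM, 7.35-fold lower in the GFP-high cells (5.67 to 9.60). The 15-cell cluster held 78.1% of its GFP-low UMIs, and in the shared cluster it stood at 20.1 and 6.04 CPM. Thsd4, a microfibril-associated protein, stood at 105 and 20.4 CPM (5.17-fold lower), yet 87.0% of its GFP-low UMIs lay in that cluster, and the shared cluster showed no such difference, at 15.9 and 16.6 CPM. Rgs5, which marks pericytes and restrains G protein signals, stood at 83.4 and 12.3 CPM (6.79-fold lower, 5.33 to 8.70), with 58.7% from the cluster, and remained 3.19-fold lower in the shared cluster (2.35 to 4.32). Tagln, an actin-binding protein of smooth muscle, stood at 55.2 and 17.4 CPM over all members and at 27.2 and 15.5 CPM in the shared cluster (1.75-fold lower, 1.26 to 2.41). Of the 135 GFP-low Fgf12 UMIs, 86 came from 1 cell, and Fgf12 stood at 22.0 and 17.9 CPM in the shared cluster. The contractile markers Myl9 and Mylk were near 1-fold over all members, at 72.4 and 62.7 and at 171 and 151 CPM.

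Other genes of the lowest ratios were lower in the shared cluster too, and are given singly. Smoc1 (chr12:81026808-81186414, forward strand) gave 343 UMIs (134 CPM) in the GFP-low and 165 UMIs (20.3 CPM) in the GFP-high cells, 6.63-fold lower (5.49 to 8.03), and was seen in 33 of 102 and 32 of 325 cells. In the shared cluster it stood at 96.0 and 21.2 CPM (4.53-fold lower, 3.67 to 5.60). Cdh18 (chr15:22549022-23474418, forward strand), a type II cadherin, stood at 163 and 30.4 CPM (5.36-fold lower, 4.57 to 6.30) and at 119 and 31.1 CPM in the shared cluster (3.81-fold lower, 3.18 to 4.57). After thinning it was seen in 23.5% and 6.46% of members, against 1.14% and 2.94% of MatFB cells. In MatFB types both genes went the other way, with Smoc1 at 3.71 and 39.1 CPM and Cdh18 at 3.28 and 33.9 CPM.

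Spon1, a matricellular protein, stood at 133 and 35.6 CPM (3.73-fold lower) and Tnc, the gene of tenascin C, at 216 and 103 CPM (2.09-fold lower, 1.87 to 2.33). In the shared cluster they were 2.38-fold and 2.49-fold lower, and the matricellular list had 1 higher and 4 lower of 18. The adjacent X-linked genes Col4a5 and Col4a6, which encode basement membrane collagen chains, stood at 223 and 110.4 CPM (2.02-fold lower) and at 98.6 and 26.9 CPM (3.67-fold lower, 3.05 to 4.42). The autosomal chains Col4a1 and Col4a2 had log2 ratios of -0.16 and -0.02. Col24a1, a minor fibrillar collagen, went from 153 to 63.3 CPM (2.41-fold lower). Col4a5, Col4a6 and Col24a1 were 1.79-fold, 2.78-fold and 2.50-fold lower in the shared cluster. Gpc6, a heparan sulphate proteoglycan, stood at 1967 and 942 CPM (2.09-fold lower, 2.02 to 2.16) and was 1.63-fold lower in the shared cluster. Kirrel3 and Gria1, a cell adhesion molecule and a glutamate receptor, were 3.37-fold and 4.08-fold lower over all members and 2.63-fold and 3.08-fold lower in the shared cluster. Thsd7b and Fblim1, also among the 20 lowest, were 3.40-fold and 2.52-fold lower over all members.

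Elastin was lower in the GFP-high adventitial cells. Eln stood at 6885 CPM in the GFP-low and 3742 CPM in the GFP-high members, 1.84-fold lower (1.81 to 1.87), and was 1.74-fold lower in the shared cluster (1.70 to 1.77). In MatFB types it was at 4853 and 8434 CPM and in MyoFB types at 5808 and 5970.0 CPM, so it was not lower in either. Eln was the 1 lower of 20 elastic fibre genes: Fbn1 (fibrillin 1) had a log2 ratio of 0.19, the crosslinking enzyme genes Lox and Loxl1 0.19 and -0.01, and Mfap5, a microfibril protein, was higher at 933 and 1596 CPM. The major fibrillar collagens Col1a1, Col1a2 and Col3a1 had log2 ratios of 0.11, 0.26 and 0.22.

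Notch pathway genes were lower in 5 of 8 cases (62.5%) and higher in none (median -0.85), against 6.37% lower over all genes at 10 CPM. The shared cluster had 3 of 7 lower (median -0.49). The ligand gene Jag1 stood at 65.0 and 33.9 CPM (1.92-fold lower, 1.57 to 2.33) and the receptor gene Notch3 at 96.3 and 47.9 CPM (2.01-fold lower), whereas Notch2 was level at 54.4 and 54.0 CPM. Of the target genes, Heyl went from 79.8 to 22.5 CPM (3.55-fold lower, 2.90 to 4.36), Hes1 from 88.4 to 51.2 CPM and Hey2 from 16.4 to 5.28 CPM. In the shared cluster Notch3 and Hes1 were under 1.5-fold apart, with log2 ratios of -0.49 and -0.31. The 15-cell cluster held 38.7% of the GFP-low Heyl UMIs, and Heyl was 2.75-fold lower without it in the shared cluster (2.15 to 3.51).

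Further receptor and enzyme genes are given singly, since no list holds them together. Pdgfrb, the other PDGF receptor, stood at 128 and 77.7 CPM (1.65-fold lower, 1.44 to 1.89) and was 1.42-fold lower in the shared cluster. Gucy1a1 and Gucy1b1, the subunits of the nitric oxide receptor guanylate cyclase, stood at 183 and 83.4 CPM (2.20-fold lower) and 83.0 and 31.7 CPM (2.62-fold lower). Both were lower in the shared cluster as well, 2.38-fold and 2.59-fold. Ednra, an endothelin receptor, stood at 232 and 147 CPM (1.58-fold lower) but was under 1.5-fold apart in the shared cluster (1.37-fold lower). Ptger4, a prostaglandin E receptor, stood at 87.3 and 33.9 CPM (2.58-fold lower, 2.15 to 3.08). Of Ptger4, 9.42% of the GFP-low UMIs lay in the 15-cell cluster. Itga8, an integrin subunit, stood at 93.1 CPM in the GFP-low cells (4.44-fold lower in the GFP-high cells), below 10% of the 1064 CPM in GFP-low MatFB cells, and is marked as possible free RNA. The same mark fell on Nebl and Cpm, so all 3 lower alveolar fibroblast markers of 14 carried it.

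Parts of both sets differed between the libraries in every cell type examined. Of the higher genes these were Egfem1, Csmd1, Tnfaip6, Adamtsl3, Penk, Aldh1a2, C1rb, Dcc, Negr1 and Plat. Adamtsl3, Aldh1a2, C1rb and Dcc were close to 0 CPM in MyoFB types. The lower genes included Cdk8. Cdk8 went from 3804 to 1023 CPM in AdvFB (3.72-fold lower), from 4371 to 1468 CPM in MatFB and from 4853 to 1317 CPM in MyoFB types. Camk1d, Cmss1, the unnamed model Gm19951, a 7SK copy and the mitochondrial genes mt-Rnr1, mt-Atp6, mt-Co2, mt-Co3 and mt-Atp8 did likewise, with Camk1d at 3969.9 and 1871 CPM in AdvFB. These genes differed between the libraries in all 3 cell types, and library and gate cannot be told apart.

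**Figure D4:**
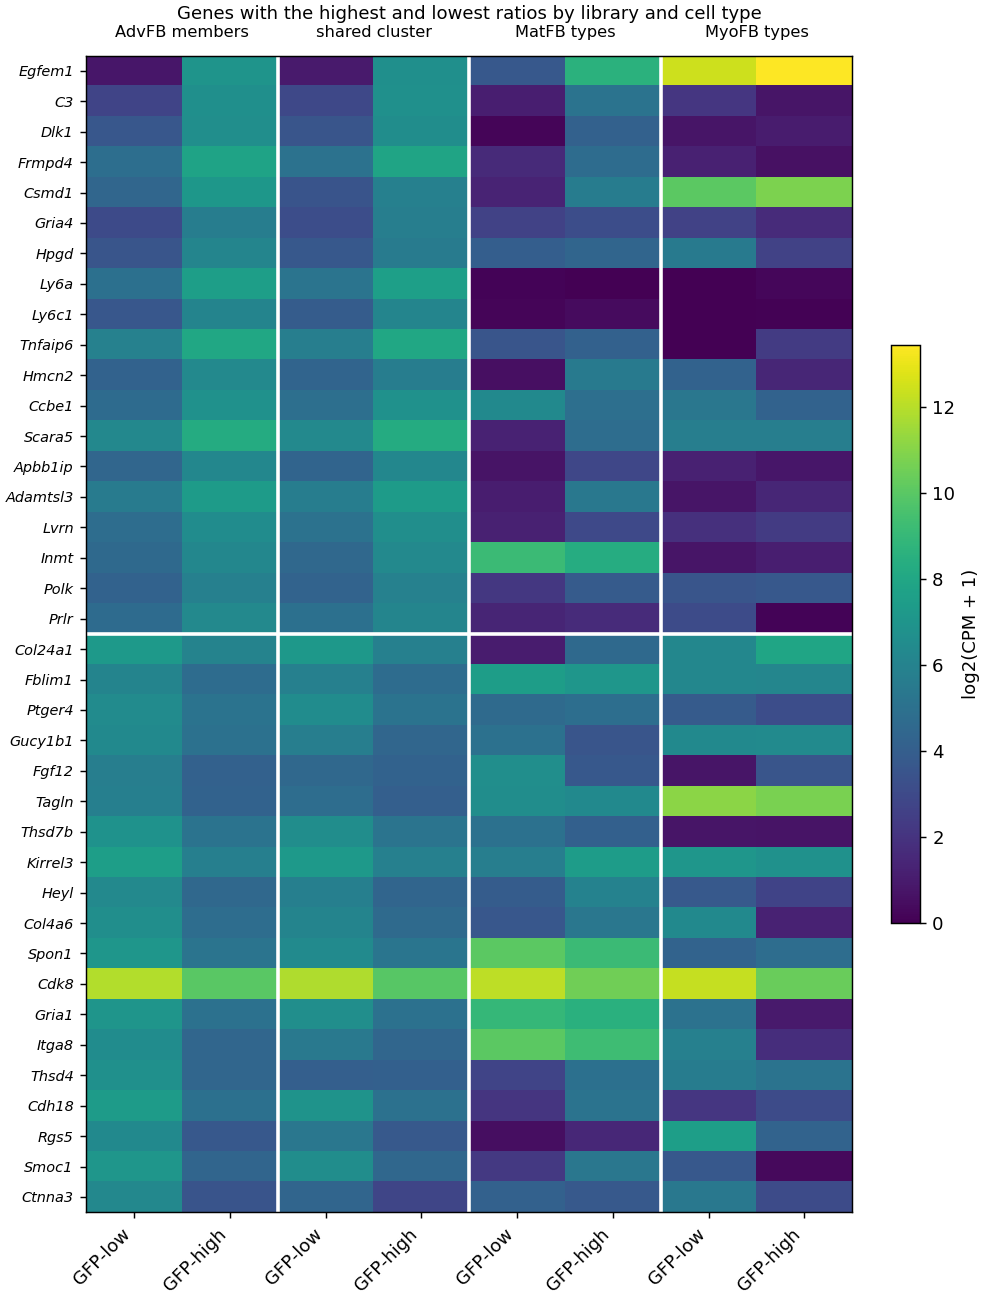
Colour gives log2(CPM + 1) of 19 of the 20 highest (upper block) and 19 of the 20 lowest (lower block) ratios in AdvFB below the Acta2 limit, in the shared cluster of these, and in MatFB and MyoFB types, each by library. Ly6a is near 0 outside AdvFB, Egfem1 is highest in MyoFB, Thsd4 is level in the shared cluster (15.9 and 16.6 CPM) and Cdk8 is lower in every GFP-high column.

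The 16 GFP-high cells that clustered apart had a median of 14033 UMIs, against 25335 in the shared cluster. They held 2275 CPM of Igf1, 971 CPM of the basement membrane protein gene Hmcn2, 726 CPM of the prostaglandin-degrading enzyme gene Hpgd and 749 CPM of Pdgfra. They gave 38.5% and 33.5% of all GFP-high member UMIs of Hmcn2 and Hpgd, and 97% and 96.8% of those of Thbs4 and Col8a1. Dcn stood at 7011 CPM in them but Col14a1 at 113 CPM, and they held no UMI of Ly6a, Ly6c1 or C3. Without these cells, 61 genes were at least 2-fold higher and 51 lower.

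Few genes of the hedgehog and FGF pathways were apart, with shares near those over all genes at 10 CPM (6.59% higher and 6.37% lower). Hedgehog genes had 1 of 13 higher (7.69%) and none lower. The co-receptor gene Cdon stood at 75.9 and 162 CPM (2.13-fold, 1.83 to 2.49), and the target gene Gli1 was at 60.3 and 44.2 CPM. Cdon was also higher in the GFP-high MatFB types, at 3.52 and 71.1 CPM. FGF genes had none higher and 1 of 11 lower (9.09%), and in the shared cluster 1 of 10 higher and none lower. Among 27 genes of TGF-beta and BMP signalling, 2 were higher (7.41%) and 4 lower (14.8%). The lower ones were Tgfb1, Tgfb2, Inhba and Smad7, with Tgfb1 at 45.4 and 23.4 CPM (1.94-fold lower). In the shared cluster 2 were higher and 3 lower. Tgfb2 and Smad7 were under 1.5-fold apart there, with log2 ratios of -0.33 and -0.38. Wnt genes had 4 of 14 higher and 2 lower, all at low levels, such as the ligand gene Wnt11 at 5.09 and 16.5 CPM.

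Axon guidance genes, several of which pattern vessels and nerves, had 4 of 28 higher (14.3%) and 5 lower (17.9%). The shared cluster had 7 higher and 3 lower. Dcc, a netrin receptor, stood at 71.6 and 166 CPM (2.32-fold, 1.98 to 2.72), and Slit3, the ligand of the Robo receptors, at 1233 and 1656 CPM. Dcc was also higher in the GFP-high MatFB types, at 1.24 and 42.3 CPM. Vegfa, the endothelial growth factor, went from 22.3 to 38.3 CPM (1.72-fold) and Angpt2 from 40.7 to 22.2 CPM, among 3 higher and 3 lower of 13 vascular genes. In the shared cluster 3 of these were higher and 0 lower, with Angpt2, Ace and Ednra 1.30-fold, 1.27-fold and 1.37-fold lower there. Immediate early and heat shock genes, which respond to dissociation, had 5 of 26 higher and 2 lower. Jun stood at 1453 and 2213 CPM and Hspa1a at 241 and 435 CPM, whereas Nr4a1 was at 243 and 126 CPM. Their part in the other differences was not tested. S phase genes had none higher and 1 of 11 lower (9.09%, against 6.37% over all genes at 10 CPM).

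**Figure D5:**
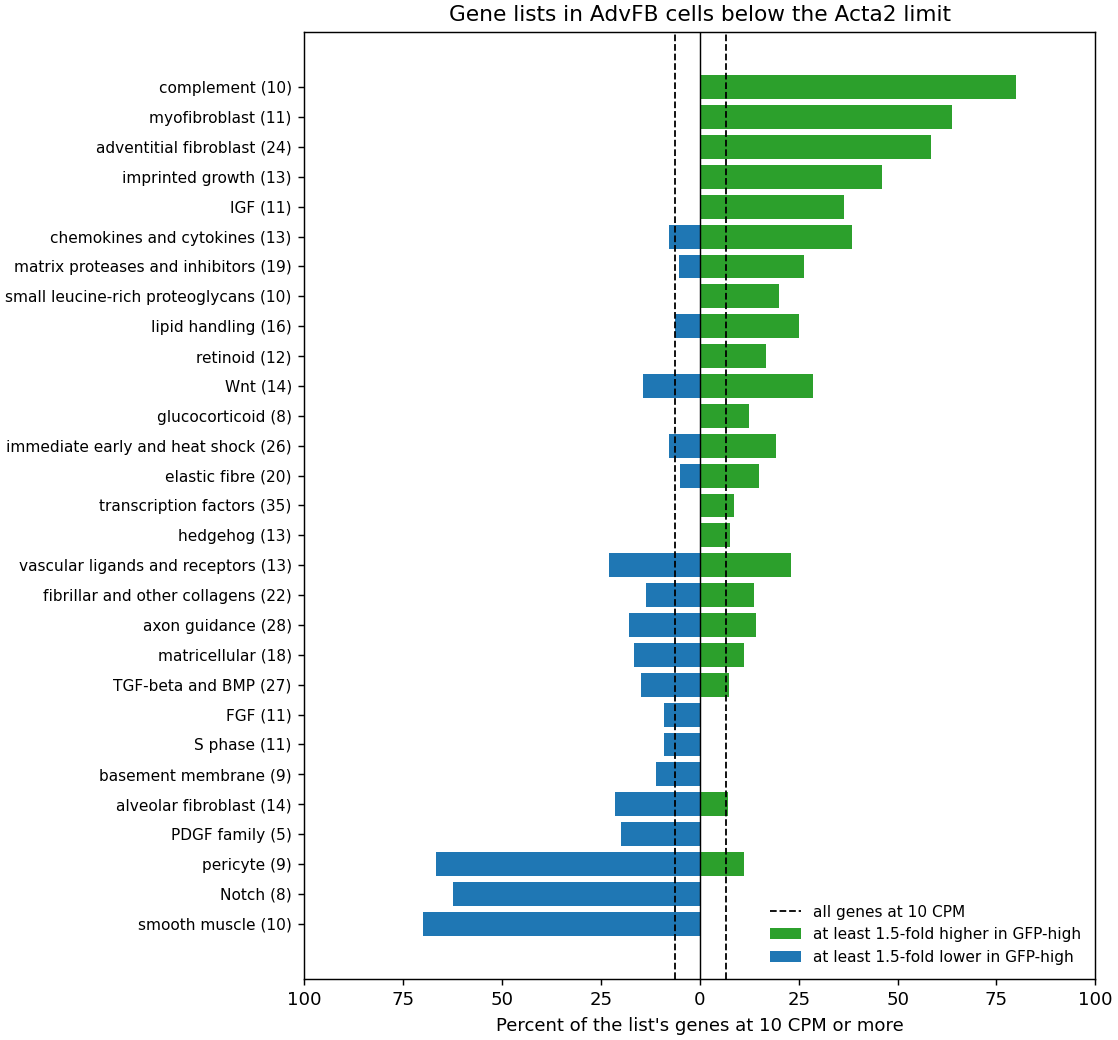
Bars give, for each list with at least 5 genes at 10 CPM (their number in parentheses), the percent at least 1.5-fold higher (right) or lower (left) in GFP-high AdvFB; dashed lines mark 6.59% and 6.37%, the shares over all 9376 genes. Complement, myofibroblast and adventitial fibroblast lists lie farthest to the right and smooth muscle, pericyte and Notch lists farthest to the left.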

How the data were processed

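Per the labels, live lung cells were sorted into 3 gates by GFP and tdTomato and 1 droplet library was made from each. Cell Ranger 7.0.0 and mm10 are named in the submitters' processing notes. The deposited matrices hold UMI counts per gene and cell, and the authors' deposited cell table gives each cell's type and its percent of mitochondrial counts. The sources used here do not state how cells were filtered and typed.

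From these, cells typed AdvFB with Acta2 below 500 CPM (UMIs per 1e6 of the cell's total) were taken. UMIs were summed per library and scaled to CPM. Log2 ratios and calls used CPM + 1, and printed folds are ratios of CPM. Exact Poisson intervals (levels), exact conditional binomial intervals (ratios) and Clopper-Pearson intervals (shares), all at 95%, cover counting error only. For shares, each cell was thinned to 5000 UMIs. Members held 6945 to 58130 UMIs each. The members, lists and rules were chosen with earlier results of these data known.

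Named were the 20 highest and 20 lowest ratios at 50 CPM and in 10% of cells (without Acta2, mitochondrial, ribosomal, haemoglobin, sex-linked and unnamed genes), the reporter and lineage transcripts, and list members 1.5-fold apart at 10 CPM or among the 5 most abundant of a list. Clusters came from scanpy 1.11.5 and leidenalg 0.10.2 on all 6142 cells (2000 variable genes, 30 components, 15 neighbours). Clusters are described by their genes and were not named as types. Doublets were not removed, and leaving out the 10% of cells with most UMIs was an alternative. Further alternatives were the scaling (TMM of edgeR 4.0.16, size factors of DESeq2 1.42.0), cell weights, pseudocount, filters, Acta2 limit, mitochondrial limit, thinning, sex and subtraction of free RNA. Leaving out clusters or each gene's top cell (4 alternatives) was chosen after seeing the data. Gene positions are from GENCODE M21 (GRCm38), matched by symbol for 30130 of 31730 genes, and promoters from RefSeq (GRCm38.p6). The scripts, in Python 3.11.15 with scipy 1.17.1 and R 4.3.3, were tested on simulated data. Some genes that these rules name are not reported here.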

Additional observations from a re-analysis of the deposited data

Results flagged for a closer look

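Several genes were apart in opposite directions in AdvFB and in another cell type of the same libraries, and these differences between cell types were not tested, with 1 library a gate. Hpgd and Hmcn2, higher in GFP-high AdvFB (log2 ratios 2.59 and 2.12), had ratios of -2.89 and -2.82 in MyoFB types, at 46.3 and 5.38 CPM for Hpgd and 18.1 and 1.71 CPM for Hmcn2. Ccbe1, also higher in GFP-high AdvFB (2.11), had -1.46 in MatFB and -1.09 in MyoFB types. The GFP-low MyoFB types were only 66 cells, which held 69 UMIs of Hpgd, 27 of Hmcn2 and 58 of Ccbe1. After thinning, Hmcn2 was seen in 3.03% of these cells, so its MyoFB ratio rests on few cells.

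Smoc1 and Cdh18, lower in GFP-high AdvFB (-2.67 and -2.38), had log2 ratios of 3.09 and 3.03 in MatFB types. Thsd4 had 2.19, Heyl 2.07, Col4a6 1.69 and Kirrel3 1.67 in MatFB types, against -2.31, -1.78, -1.84 and -1.74 in AdvFB. Col24a1 had 3.59 in MatFB and 1.70 in MyoFB types, against -1.26 in AdvFB. The mix of MatFB subtypes differed between the gates (MatFB-Im,Cuff in 205 of 1055 and 110 of 170 cells), and its part in these ratios was not tested.

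The 4 AdvFB cells of the GFP-high tdT-high library, which entered no comparison, held TDT at 90.2 CPM and Fgf18 at 57.4 CPM. These levels rest on 11 and 7 UMIs, each from 3 of the cells. Fgf18 stood at 3.13 and 3.19 CPM in the members, and TDT gave 2 and 5 UMIs there. The 4 cells were sorted as tdTomato-high and the members as tdTomato-negative, so a higher TDT level was close to given. The Fgf18 locus drives the Cre behind that label, so the gate bears on Fgf18 as well. No conclusion is drawn from either gene. Those 4 cells held no Acta2 UMI.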

How the results depend on the processing

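No paired analysis was possible because each gate is 1 library, and no library could be left out. Against 65 genes higher and 49 lower, a minimum of 10 CPM gave 181 and 194, a minimum of 10 UMIs 625 and 473, all AdvFB cells 121 and 170, and cells with Xist and no Y-linked UMI (25 and 85 cells) 137 and 144. The lower count was 76 with cells thinned, 30 in the shared cluster, 29 without the 15-cell GFP-low cluster and 32 without each gene's top cell. TMM gave 66 and 42 and median-of-ratios scaling 69 and 41. The log2 ratio of Pdgfra, 0.08, was 0.22 from the mean of cell CPM, 0.50 in all AdvFB cells, 0.24 thinned, 0.42 in cells with Xist only, -0.14 in cells with Y-linked UMIs only and -0.13 in the shared cluster. That of H2BGFP, 0.07, was 0.43 in all AdvFB cells, 0.38 thinned and 0.34 in cells with Xist only. Egfem1 came to -0.72 with free RNA subtracted, by construction, since its own level set the amount subtracted. Thsd4 reversed to 0.054 in the shared cluster and 0.35 without the 15-cell cluster, and Fgf12 to 0.38 in cells with Y-linked UMIs only. The low-value filters and the choices of cells change which genes or cells enter, and beyond that the cause was not tested. Of the 20 highest genes, 19 (without Egfem1) were at least 2-fold higher with free RNA subtracted and 20 under each other setting of cells, scaling, depth and pseudocount. Of the 20 lowest, 16 were at least 2-fold lower in the shared cluster and 15 without the 15-cell cluster. With 102 GFP-low cells, a total of 2555470 UMIs limits low genes most, and levels under 1.17 CPM there are within what a count of 0 allows.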

Other observations

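The small leucine-rich proteoglycan list, which holds decorin, had 2 of 10 genes at least 1.5-fold higher in GFP-high cells and 0 lower. Ogn, the gene of osteoglycin, went from 561 to 931 CPM. Basement membrane genes had none higher and 1 of 9 lower, which was Agrn at 29.0 and 17.1 CPM. Of the other collagens, Col12a1 went from 29.3 to 54.6 CPM and Col5a3 from 25.4 to 44.4 CPM. The glucocorticoid-responsive genes had Errfi1 higher, at 67.7 and 108 CPM, as 1 of 8 (12.5%, against 6.59% over all genes at 10 CPM).

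Among guidance genes, the receptor gene Robo2 stood at 245 and 402 CPM and the ligand gene Efna5 at 321 and 552 CPM, while the semaphorin receptor gene Plxna2 was lower at 70.0 and 38.8 CPM. Fgfr4, a receptor of fibroblast growth factors, gave 26 UMIs in the 102 GFP-low and 6 in the 325 GFP-high cells. Its log2 ratio was -2.69 over all members and -1.11 in the shared cluster, where no FGF gene was called lower.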
